A study of Mus musculus with 6 samples.

Results

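Claudins, occludin, tricellulin and the scaffold ZO-3 build or anchor the strands of the tight junction, and their transcripts were followed in mouse uterine luminal epithelium with and without Foxo1. The 10 genes were taken by symbol from a list: the claudins Cldn1, Cldn3, Cldn4, Cldn7, Cldn8, Cldn10 and Cldn23, the occludin gene Ocln, the tricellulin gene Marveld2, and Tjp3, which encodes ZO-3. All 10 were found among the 24964 genes of the deposited expression table, and all 10 passed the filter on low values. The Foxo1dd group held 3 samples from Pgrcre/+Foxo1f/f females, which carry 2 floxed Foxo1 alleles and 1 Cre allele at the progesterone receptor gene Pgr. The Foxo1ff group held 3 samples from Foxo1f/f females, with the same floxed alleles and no Cre. Females had been housed with littermates until 8 weeks of age, then mated and dissected on pregnancy day 4, and the epithelium was cut out by laser capture. Cre at Pgr acts in every cell lineage that expresses the receptor, so deletion is not limited to the epithelium, and the groups also differ in the number of intact Pgr alleles. The labels call the samples bioreplicates but name no animals, and the p-values rest on the spread between these libraries, which may be technical.

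The tight junction is a belt near the apex of neighbouring epithelial cells that limits what passes between them. Claudins are proteins with 4 membrane spans that polymerise into its strands. Some, such as claudin-3 and claudin-4, are known mainly as sealing claudins, and others, such as claudin-10, form pores for small ions. Occludin and tricellulin carry a MARVEL domain, tricellulin being concentrated where 3 cells meet, and the ZO proteins bind claudin tails inside the cell. In the uterus the luminal epithelium closes around the embryo at implantation, and its junctions separate the fluid of the lumen from the stroma.

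Foxo1 fell to 1.72, 0.942 and 1.22 FPKM in Foxo1dd, against 160.0, 119 and 111 FPKM in Foxo1ff. FPKM is a read level divided by the length of the gene and the depth of the library. Pgr, the Cre locus, was at 36.2, 29.9 and 28.3 FPKM in Foxo1dd and at 2.44, 1.64 and 2.02 FPKM in Foxo1ff, and none of the 10 genes lies on its chromosome 9. Genes above 0 numbered 13995 in Foxo1dd 2 and 15474 to 16062 in the other samples. Of the captured cells' 10 epithelial markers, all 10 were tested. Of these, 5 rose and 2 fell, beside 22.2% higher and 34.2% lower of all tested genes. Their summed level was 3262 to 4077 FPKM in Foxo1dd and 2047 to 2620 FPKM in Foxo1ff. Calb1 (mean 538.8 FPKM in Foxo1dd, 4.13 FPKM in Foxo1ff), Krt8, Krt19, Lpar3 and Elf3 rose. Epcam (mean 393.3 FPKM in Foxo1dd, 554.5 FPKM in Foxo1ff) and Cdh1 fell. Whether the samples differed in their share of epithelium was not tested. The 10 endothelial markers all lay below the minimum mean of 1 FPKM. Across all 11427 tested genes the median log2 change, Foxo1dd minus Foxo1ff, was -0.15, and median-of-ratios scaling brought it to -0.01, so changes near -0.15 are close to that of the typical gene.

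Several of the 10 genes are neighbours, and promoter sequences of those pairs are shown because the neighbours are compared with each other by their ratios. Those of Cldn10 are shown because its starts lie far apart. On mm10, Marveld2 (chromosome 13, 100595957 to 100616971, minus strand, 7 exon blocks) and Ocln (chromosome 13, 100496507 to 100552718, minus strand, 10 exon blocks) lie 43238 bases apart. Cldn4 (chromosome 5, 134945119 to 134946934, minus strand) and Cldn3 (chromosome 5, 134986214 to 134987472, plus strand) each consist of 1 exon block, point away from each other and lie 39279 bases apart. Cldn10 (chromosome 14, 118787908 to 118875489, plus strand) has alternative first exons. The windows run from 250 bases before to 50 bases after a start, are from RefSeq (GRCm38.p6), and are printed 5′ to 3′ on the strand of the gene. Capitals mark TGTTCT or its reverse complement AGAACA, the half-site of the progesterone receptor.
Marveld2, chr13:100616922-100617221, minus strand: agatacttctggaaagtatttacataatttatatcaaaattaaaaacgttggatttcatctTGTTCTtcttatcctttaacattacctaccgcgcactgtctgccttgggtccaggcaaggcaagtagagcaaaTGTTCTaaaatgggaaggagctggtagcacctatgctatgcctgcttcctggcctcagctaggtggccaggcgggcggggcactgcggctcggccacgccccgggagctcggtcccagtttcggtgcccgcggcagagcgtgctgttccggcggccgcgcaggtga
Ocln, chr13:100552669-100552968, minus strand: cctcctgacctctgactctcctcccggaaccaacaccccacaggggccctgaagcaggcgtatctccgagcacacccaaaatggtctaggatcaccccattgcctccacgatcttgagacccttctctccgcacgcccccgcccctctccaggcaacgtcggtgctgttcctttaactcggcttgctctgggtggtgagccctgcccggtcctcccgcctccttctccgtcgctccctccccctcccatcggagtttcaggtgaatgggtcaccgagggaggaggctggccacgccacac
Cldn4, chr5:134946885-134947184, minus strand: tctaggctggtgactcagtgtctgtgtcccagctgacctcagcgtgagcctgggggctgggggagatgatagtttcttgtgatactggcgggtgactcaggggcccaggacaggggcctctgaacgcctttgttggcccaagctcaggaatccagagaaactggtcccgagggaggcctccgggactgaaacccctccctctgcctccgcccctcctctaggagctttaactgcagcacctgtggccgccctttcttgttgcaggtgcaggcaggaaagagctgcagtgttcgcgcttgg
Cldn3, chr5:134985964-134986263, plus strand: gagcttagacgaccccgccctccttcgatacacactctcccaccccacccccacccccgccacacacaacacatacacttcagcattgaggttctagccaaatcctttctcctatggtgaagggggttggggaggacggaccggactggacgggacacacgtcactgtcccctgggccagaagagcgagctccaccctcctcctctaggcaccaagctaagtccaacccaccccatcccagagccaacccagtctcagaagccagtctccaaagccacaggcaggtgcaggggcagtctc
Cldn10 upstream start, chr14:118787621-118787920, plus strand: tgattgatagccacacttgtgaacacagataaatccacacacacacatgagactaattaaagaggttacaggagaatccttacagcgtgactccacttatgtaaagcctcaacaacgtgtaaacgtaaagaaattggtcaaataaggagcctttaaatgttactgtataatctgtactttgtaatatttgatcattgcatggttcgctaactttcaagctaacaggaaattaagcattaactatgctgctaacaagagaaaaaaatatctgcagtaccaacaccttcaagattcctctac
Cldn10 downstream start, chr14:118854700-118854999, plus strand: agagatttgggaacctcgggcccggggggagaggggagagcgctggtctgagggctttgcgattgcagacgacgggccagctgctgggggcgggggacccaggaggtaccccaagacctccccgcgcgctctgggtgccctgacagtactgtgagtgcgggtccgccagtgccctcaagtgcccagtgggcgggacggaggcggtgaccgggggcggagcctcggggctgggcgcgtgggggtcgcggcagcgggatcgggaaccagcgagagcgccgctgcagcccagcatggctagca
RefSeq windows were found for 8 of the 10 genes, Cldn8 and Cldn23 being named only, and made 13 windows. Marveld2, Ocln, Cldn7 and Tjp3 also had more than 1 window, and 1 each is shown for Marveld2 and Ocln. The half-site, on either strand, was in 2 of the 13 and in 19.0% of all 32851 windows. Both are Marveld2 windows that overlap and hold the same pair of matches. In the Marveld2 window shown, the matches start 189 and 116 bases before the gene start. The FOXO motif GTAAACA or TGTTTAC was in 0 of the 13 windows and in 3.65% of all windows. The Grainyhead-like motif AACCGGTT, its own reverse complement, was in 0 of the 13 and in 0.146% of all. These matches are descriptions of the letters in these windows. The upstream Cldn10 window has a GC content of 36.0% and the downstream one 72.0%, and the table gives 1 value for both starts.

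Of the 10 genes, 3 rose and 4 fell in Foxo1dd, and 3 passed in neither direction (limma adjusted p under 0.05 over all tested genes). Among all tested genes 22.2% were higher, 34.2% lower and 56.4% either, so on the deposited scale the shares of the 10 genes were near those of the table as a whole. The median log2 change of the 10 was 0.20, beside -0.15 for all tested genes. With libraries scaled by median of ratios, 5 were higher and 4 lower, beside 27.9% and 28.9% of all tested genes. Without Foxo1ff replicate 1, 6 were higher and 4 lower, beside 20.8% and 30.7%. The count higher was 2 without Foxo1ff replicate 2 (18.5% of all) or replicate 3 (18.9%). The groups did not overlap for the 3 genes that rose and the 4 that fell, beside 64.2% of all tested genes. In bulk samples, fewer cells of a type and less RNA per cell cannot be told apart.

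**Figure D1:**
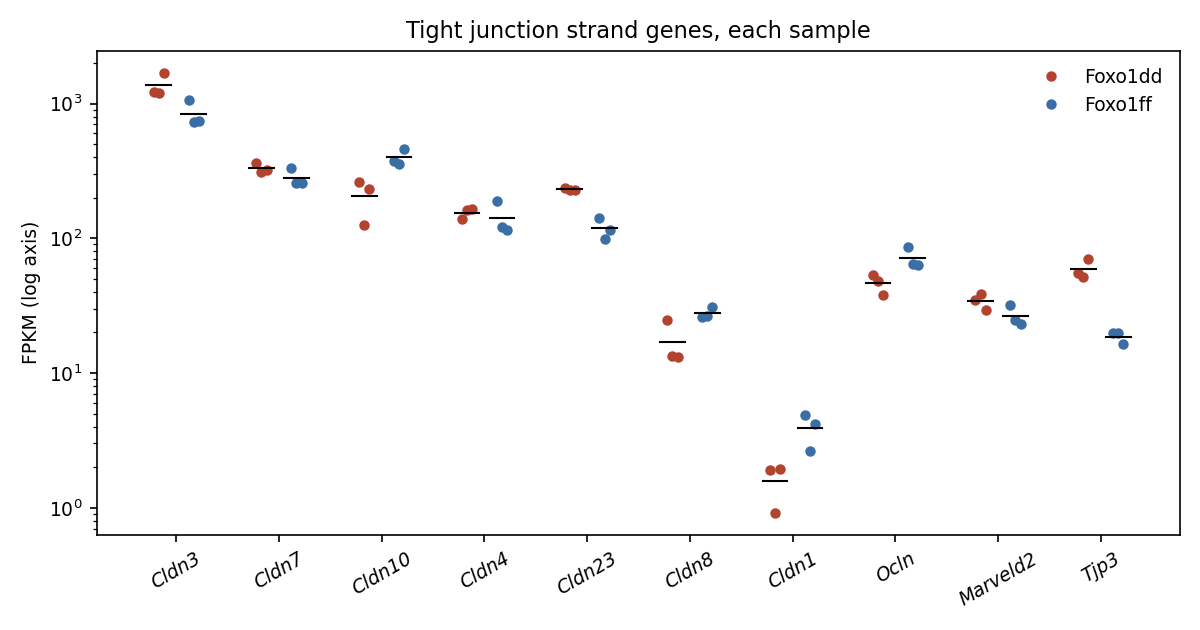
FPKM (log axis) of the 10 genes in each sample, Foxo1dd left of Foxo1ff for each gene, with a point per sample and a line at the group mean. Cldn3 is the highest in both groups, at 1205 to 1693 FPKM in Foxo1dd and 726 to 1060.0 FPKM in Foxo1ff, and Cldn1 the lowest.

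Tjp3 had the largest change of the 10. ZO-3 is an epithelial scaffold that links claudins and occludin to actin-binding partners. Its FPKM was 55.3, 51.7 and 70.0 in Foxo1dd and 19.8, 19.7 and 16.5 in Foxo1ff. Every Foxo1dd sample lay above every Foxo1ff sample, the mean being 3.16-fold higher. The log2 change was 1.60 ± 0.15 (SE, 3 samples in each group, limma adjusted p = 2.45e-05), and it was called under all 16 alternatives. Tjp3 (chromosome 10, 81273207 to 81291581, minus strand) overlaps exons of Apba3 on the opposite strand, and the strand setting of the counting is not given in the sources used here. Apba3 itself was at 20.2 ± 1.48 FPKM in Foxo1dd and 30.8 ± 1.60 FPKM in Foxo1ff (SD, n = 3 each), lower while Tjp3 was higher. The related scaffold gene Tjp1 (ZO-1) fell.

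Cldn23, a claudin of barrier epithelia, rose to 236, 228 and 229 FPKM in Foxo1dd, against 142, 98.1 and 115 FPKM in Foxo1ff. The Foxo1dd samples lay close together, all above the Foxo1ff range. The mean was 1.95-fold higher, a log2 change of 0.97 ± 0.14 (SE, 3 samples in each group, limma adjusted p = 0.000421), called under all 16 alternatives. Cldn23 (chromosome 8, 35824712 to 35826559, minus strand) is a single exon block with no exon of another gene over it.

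Cldn3 was the most abundant claudin in every sample. Its FPKM was 1216, 1205 and 1693 in Foxo1dd and 1060.0, 726 and 738 in Foxo1ff. The groups did not overlap, but Foxo1ff 1 came near the lower Foxo1dd samples, and Foxo1dd 3 stood above the rest. The mean was 1.63-fold higher, a log2 change of 0.71 ± 0.20 (SE, 3 samples in each group, limma adjusted p = 0.0133). This call was lost without Foxo1ff replicate 2 (adjusted p = 0.0545), without Foxo1ff replicate 3 (0.0539) and with no filter on low values (0.0547), and the alternatives spanned 0.000854 to 0.0547. Exons of Wbscr25, at 0.198 FPKM in Foxo1dd and 0.364 FPKM in Foxo1ff, lie opposite Cldn3.

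Cldn4 and Cldn7 were not called. Cldn4 was at 138, 161 and 164 FPKM in Foxo1dd and 189, 122 and 115 FPKM in Foxo1ff. The highest and the lowest of the 6 values were both Foxo1ff samples. Its log2 change was 0.15, with a 95% interval of -0.27 to 0.58 (limma adjusted p = 0.513). Cldn7, an epithelial claudin also found on the lateral membrane (chromosome 11, 69964779 to 69967885, plus strand), was at 361, 311 and 323 FPKM in Foxo1dd and 332, 258 and 256 FPKM in Foxo1ff. Only Foxo1ff 1 lay inside the Foxo1dd range. Its log2 change was 0.24 (95% interval -0.07 to 0.55, limma adjusted p = 0.171). Without Foxo1ff replicate 1, the highest Foxo1ff sample for both, Cldn4 and Cldn7 were called higher, with log2 changes of 0.37 (adjusted p = 0.0371) and 0.36 (0.0306). The adjusted p ranged from 0.0371 to 0.939 for Cldn4 and from 0.0177 to 0.405 for Cldn7 among the alternatives, and Cldn7 was also called under median-of-ratios scaling (0.0312), quantile normalization (0.0486) and array weights (0.0177).

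Cldn10 fell the most among the abundant claudins. Claudin-10 forms ion pores whose preference for anions or cations depends on the first exon used. Its FPKM was 264, 126 and 231 in Foxo1dd and 377, 358 and 463 in Foxo1ff. Every Foxo1dd sample lay below the Foxo1ff range, with Foxo1dd 2 far below the other Foxo1dd samples. The mean was 1.93-fold lower, a log2 change of -1.01 ± 0.25 (SE, 3 samples in each group, limma adjusted p = 0.00804). Without Foxo1dd replicate 2 the change was -0.68 (adjusted p = 0.00592), and the gene was called under all 16 alternatives (adjusted p = 0.00156 to 0.0359).

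Cldn8, whose claudin pairs with claudin-4 in the kidney collecting duct, fell to 24.7, 13.3 and 13.1 FPKM in Foxo1dd, against 26.0, 26.5 and 31.1 FPKM in Foxo1ff. Foxo1dd 1 lay just under the lowest Foxo1ff sample, the others far under it. The log2 change was -0.73 ± 0.23 (SE, 3 samples in each group, limma adjusted p = 0.0212). This call was lost under 5 of 16 alternatives: no filter (adjusted p = 0.0615), quantile normalization (0.0537), and without Foxo1ff replicate 3 (0.0721), Foxo1dd replicate 2 (0.0593) or Foxo1dd replicate 3 (0.0659). Without Foxo1dd replicate 1 the change was -1.02 (adjusted p = 0.00100).

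Cldn1, which the skin barrier of the mouse requires, was the lowest of the 10. It had 1.90, 0.918 and 1.92 FPKM in Foxo1dd and 4.88, 2.65 and 4.21 FPKM in Foxo1ff. All Foxo1dd values lay below all Foxo1ff values. The mean was 2.47-fold lower, and the log2 change of -0.93 ± 0.25 (SE, 3 samples in each group, limma adjusted p = 0.0111) understates the change of so low a gene. With array weights it was -0.53 and not called (adjusted p = 0.0566), over a range of 0.00387 to 0.0566. By the depth read from the table, the Foxo1dd 2 value stood for about 327 reads, and those of the other 9 genes for at least 2300 reads in every sample. Cldn8 (chromosome 16, 88560828 to 88563183, minus strand) and Cldn1 (chromosome 16, 26356642 to 26371841, minus strand) lie beside Cldn17 and Cldn16. Cldn17 was listed at 0 in every sample and Cldn16 averaged 0.0797 FPKM in Foxo1dd and 0.0257 FPKM in Foxo1ff.

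Markers of uterine glands, whose epithelium joins the luminal layer, also moved. Each count of markers below is to be read beside 22.2% higher and 34.2% lower of all tested genes. Of 8 glandular markers 5 were tested, of which 2 rose and 3 fell, and their summed level was 7.32 to 27.9 FPKM in Foxo1dd and 53.2 to 214 FPKM in Foxo1ff. Spink1, a secreted protease inhibitor that carries most of the Foxo1ff sums, was at 0.307, 0.0640 and 0 FPKM in Foxo1dd and at 44.2, 57.2 and 178 FPKM in Foxo1ff. Prss28 and Prss29 also fell. The 2 that rose were Sox9 (15.1 FPKM in Foxo1dd, 1.90 FPKM in Foxo1ff) and Lif (3.02 FPKM in Foxo1dd, 0.269 FPKM in Foxo1ff). Foxa2 overlapped between groups (0.644 FPKM in Foxo1dd, 0.943 FPKM in Foxo1ff) and was not tested. Cxcl15 and Wfdc3 were at 0 in every Foxo1ff sample and at most 0.287 FPKM in Foxo1dd. Of 14 stroma markers 10 were tested, of which 3 rose and 0 fell. Their summed level was 44.3 to 60.6 FPKM in Foxo1dd and 38.0 to 43.6 FPKM in Foxo1ff. The largest part of it was Nr2f2 (28.9 FPKM in Foxo1dd, 22.0 FPKM in Foxo1ff), which rose with Col3a1 and Sparc. Of 10 leukocyte markers 7 were tested, of which 2 rose and 5 fell, with sums of 72.9 to 94.5 FPKM in Foxo1dd and 42.3 to 91.0 FPKM in Foxo1ff. Laptm5, which rose, made up most of the Foxo1dd sums (63.2 FPKM in Foxo1dd, 4.04 FPKM in Foxo1ff), and the 5 that fell were Ptprc, C1qa, C1qb, Tyrobp and Lyz2. Of 7 smooth muscle markers 4 were tested, 1 rose and 1 fell (sums 8.23 to 10.01 FPKM in Foxo1dd, 11.8 to 14.4 FPKM in Foxo1ff). Smtn fell (3.20 FPKM in Foxo1dd, 8.31 FPKM in Foxo1ff), Myl9 rose (1.81 FPKM in Foxo1dd, 0.603 FPKM in Foxo1ff), and Tagln and Des were not called. Of 5 mesothelium markers 2 were tested, 1 rose and 1 fell (sums 3.27 to 8.58 FPKM in Foxo1dd, 29.0 to 39.4 FPKM in Foxo1ff). The Foxo1ff sums of that list were nearly all Msln, which fell (0.0443 FPKM in Foxo1dd, 32.2 FPKM in Foxo1ff). Most of the Foxo1dd sums was Krt5, which rose (5.06 FPKM in Foxo1dd, 0.231 FPKM in Foxo1ff). Upk3b and Wt1 overlapped between groups and were not tested, and Lrrn4 was at 0 in every sample. The part of all these markers in the changes of the 10 genes was not tested.

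**Figure D2:**
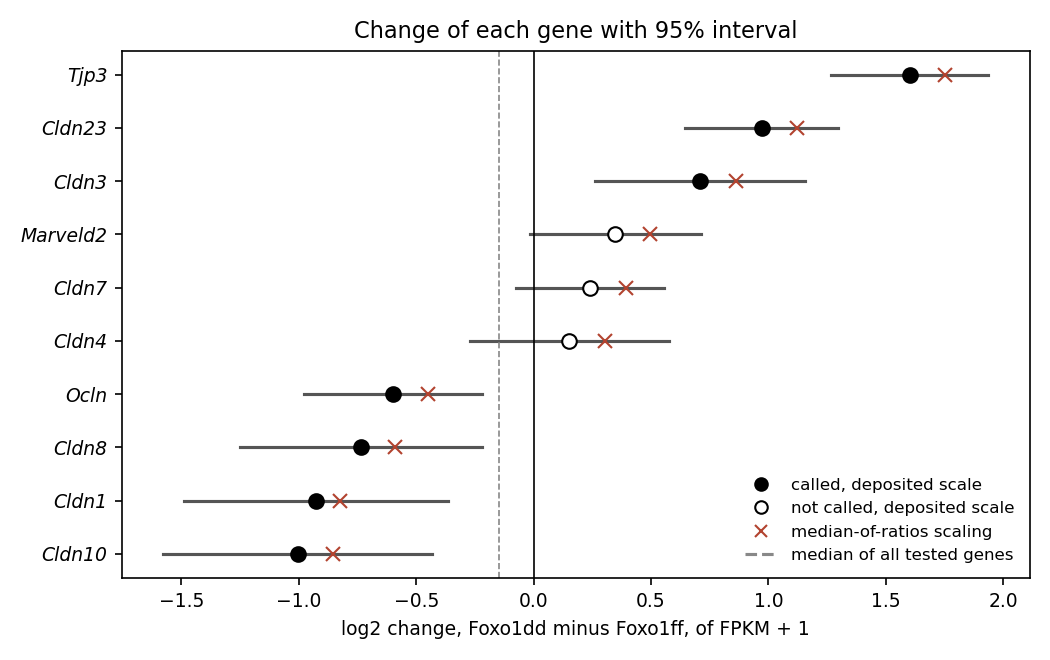
Log2 change of FPKM + 1, Foxo1dd minus Foxo1ff, of each gene (circles, filled where the adjusted p was under 0.05) with its 95% interval from limma, and the change under median-of-ratios scaling (crosses). Changes run from -1.01 for Cldn10 to 1.60 for Tjp3, and the dashed line is the median of all tested genes, -0.15.

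Of the MARVEL genes, Ocln fell and Marveld2 was not called. Ocln, the occludin gene, fell to 53.4, 48.0 and 38.2 FPKM in Foxo1dd, against 85.8, 64.7 and 63.0 FPKM in Foxo1ff. The groups did not overlap, and Foxo1ff 1 stood above the others. The mean was 1.53-fold lower, a log2 change of -0.60 ± 0.17 (SE, 3 samples in each group, limma adjusted p = 0.0131), called under all 16 alternatives (adjusted p = 0.00561 to 0.0464). Marveld2, the tricellulin gene, was at 34.8, 38.3 and 29.1 FPKM in Foxo1dd and 32.0, 24.8 and 23.1 FPKM in Foxo1ff. Foxo1ff 1 lay inside the Foxo1dd range, and the log2 change was 0.35 (95% interval -0.01 to 0.71, limma adjusted p = 0.0930). It was called higher under median-of-ratios scaling (adjusted p = 0.0320), quantile normalization (0.0264), array weights (0.0225) and without Foxo1ff replicate 1 (0.0319), over a range of 0.0225 to 0.264.

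Ratios within a sample hardly depend on the scaling between libraries at these levels. The log2 ratio of Marveld2 over Ocln was -0.60, -0.32 and -0.38 in Foxo1dd and -1.39, -1.35 and -1.41 in Foxo1ff. Its mean was 0.95 higher in Foxo1dd, and the SD of the Foxo1ff values was 0.03. The groups did not overlap (exact two-sided permutation test, p = 0.1, the smallest that 3 against 3 samples allow). The log2 ratio of Cldn4 over Cldn3 was -3.13, -2.90 and -3.36 in Foxo1dd and -2.48, -2.56 and -2.67 in Foxo1ff. Here the Foxo1dd mean was lower by a log2 difference of -0.56 (exact two-sided permutation test, p = 0.1, again the smallest possible). Cldn7 over Cldn4, the pair of claudins that were not called, overlapped between groups, with 1.38, 0.95 and 0.97 in Foxo1dd and 0.81, 1.07 and 1.14 in Foxo1ff (exact two-sided permutation test, p = 0.7). These 3 ratios are a single family, and none can pass 0.05 in this design.

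**Figure D3:**
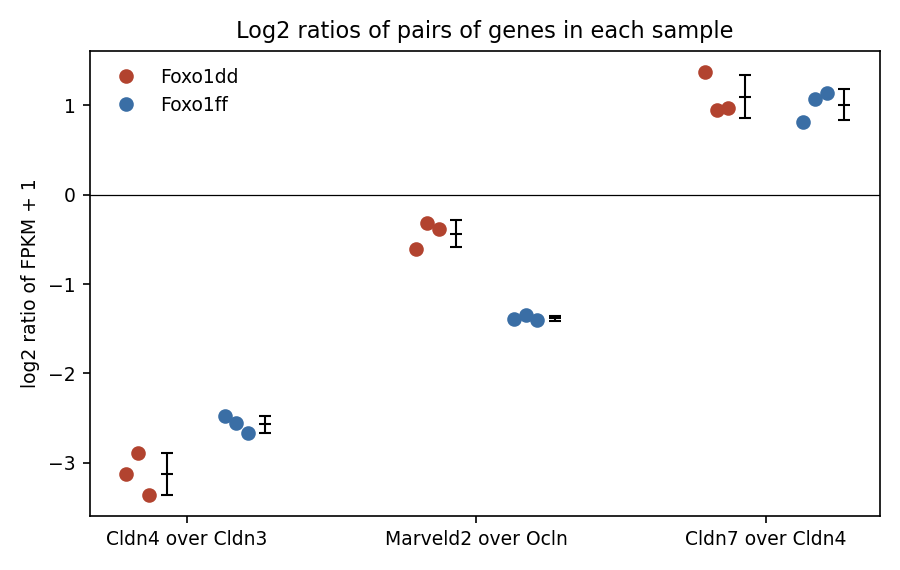
Log2 ratios of FPKM + 1 of 3 gene pairs in each sample, Foxo1dd left of Foxo1ff, with mean and SD beside the points. Marveld2 over Ocln averages -0.43 in Foxo1dd and -1.38 in Foxo1ff, and Cldn7 over Cldn4 overlaps between groups.

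The summed level of the 7 claudins overlapped between groups while its make-up differed. The sum was 2242, 2045 and 2655 FPKM in Foxo1dd and 2132, 1591 and 1723 FPKM in Foxo1ff, Foxo1ff 1 lying above Foxo1dd 2. FPKM is per length, so claudins can be set side by side. The shares are a description with no test. They divide a common sum, so a higher share of a claudin lowers those of others, and they restate the levels given above. Cldn3 made up 54.3%, 58.9% and 63.8% of the sum in Foxo1dd and 49.7%, 45.6% and 42.8% in Foxo1ff. Cldn10 made up 11.8%, 6.15% and 8.70% in Foxo1dd and 17.7%, 22.5% and 26.9% in Foxo1ff, and neither share overlapped between groups. Cldn23 held 10.1% ± 1.32 in Foxo1dd and 6.52% ± 0.302 in Foxo1ff (SD, n = 3 each), also without overlap. Cldn7 held 14.5% ± 2.06 in Foxo1dd and 15.6% ± 0.695 in Foxo1ff, and Cldn4 6.74% ± 0.976 and 7.74% ± 1.09 in the same groups (SD, n = 3 each), both overlapping. Cldn8 and Cldn1 held 0.749% and 0.0674% in Foxo1dd, and 1.57% and 0.213% in Foxo1ff.

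**Figure D4:**
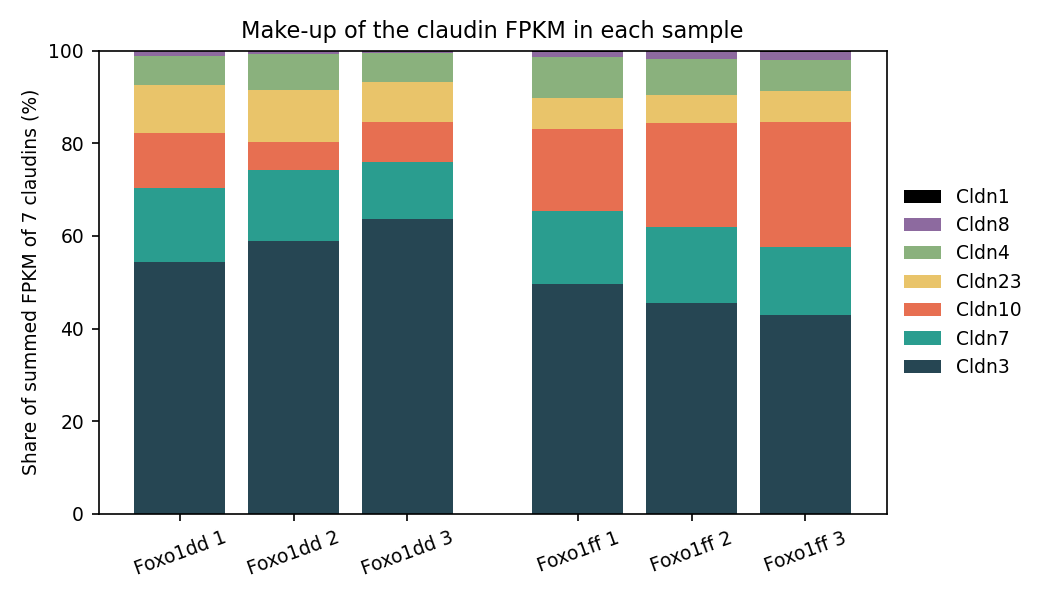
Share of the summed FPKM of the 7 claudins held by each, as stacked bars per sample, Foxo1dd left and Foxo1ff right. The Cldn3 share is 54.3% to 63.8% in Foxo1dd and 42.8% to 49.7% in Foxo1ff, and the Cldn10 share 6.15% to 11.8% in Foxo1dd and 17.7% to 26.9% in Foxo1ff.

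By mean FPKM the order in Foxo1dd was Cldn3, Cldn7, Cldn23, Cldn10, Cldn4, Tjp3, Ocln, Marveld2, Cldn8 and Cldn1. In Foxo1ff it was Cldn3, Cldn10, Cldn7, Cldn4, Cldn23, Ocln, Cldn8, Marveld2, Tjp3 and Cldn1. Cldn10 thus ranked 4 in Foxo1dd and 2 in Foxo1ff, and Tjp3 ranked 6 in Foxo1dd and 9 in Foxo1ff. Neighbours whose sample ranges overlapped in Foxo1dd were Cldn23 and Cldn10, Cldn10 and Cldn4, Tjp3 and Ocln, and Ocln and Marveld2. In Foxo1ff they were Cldn4 and Cldn23, and Cldn8 and Marveld2.

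Most other claudins were near or at 0. The table holds 32 numbered claudins, of which 25 are outside the 10 genes. Of these 25, 13 were listed at 0 in every sample and 10 had values above 0 but a mean under 1 FPKM. The endothelial claudin Cldn5 averaged 0.0183 FPKM in Foxo1dd and 0.0287 FPKM in Foxo1ff. Cldn12, a claudin without the usual tail motif for ZO binding, was at 13.9, 10.03 and 11.5 FPKM in Foxo1dd and 14.7, 14.0 and 14.8 FPKM in Foxo1ff. Its groups did not overlap, yet the log2 change of -0.29 ± 0.15 (SE, 3 samples in each group) was not called (limma adjusted p = 0.127). Cldn22 rose to 1.79, 3.92 and 4.44 FPKM in Foxo1dd, against 0.429, 0.0920 and 0.122 FPKM in Foxo1ff (log2 change 1.80 ± 0.28, SE, 3 samples in each group, limma adjusted p = 0.000506). Cldn22 lies opposite exons of Wwc2, which was at 5.89 FPKM in Foxo1dd and 7.71 FPKM in Foxo1ff, so its reads are uncertain. Together the 25 summed to 16.4 to 17.9 FPKM per sample in Foxo1dd and 15.02 to 16.2 FPKM in Foxo1ff.

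The other genes of the tight junction were taken from a list of 50, of which 39 were tested, 8 rose and 13 fell, with a median log2 change of -0.11. The 22.2% higher and 34.2% lower of all tested genes again lie close to these counts. Of 19 tested scaffold and membrane genes, 4 rose and 9 fell. Among adhesion molecules of the junction, Jam2 rose to 257, 184 and 343 FPKM in Foxo1dd, against 16.7, 13.9 and 13.1 FPKM in Foxo1ff (log2 change 4.04 ± 0.21, SE, 3 samples in each group, limma adjusted p = 1.07e-06). F11r, the gene of JAM-A, averaged 109 ± 5.15 FPKM in Foxo1dd and 77.9 ± 0.846 FPKM in Foxo1ff (SD, n = 3 each, limma adjusted p = 0.00366). Cxadr, the coxsackievirus and adenovirus receptor, fell to 29.6 ± 5.27 FPKM in Foxo1dd, against 54.3 ± 2.41 FPKM in Foxo1ff (SD, n = 3 each, limma adjusted p = 0.000752).

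Among the angulins, which bring tricellulin to the corners where cells meet, Ildr1 rose and Lsr fell, and Ildr2 was not tested, being listed at 0 in every Foxo1dd sample and at 0.0420 to 0.101 FPKM in Foxo1ff. Ildr1 (angulin-2) rose to 61.6, 80.2 and 79.8 FPKM in Foxo1dd, against 9.71, 8.16 and 8.86 FPKM in Foxo1ff. Lsr (angulin-1) fell to 85.2, 87.2 and 86.6 FPKM in Foxo1dd, against 169, 167 and 150 FPKM in Foxo1ff. In Foxo1ff the Lsr values were many times those of Ildr1, and in Foxo1dd the sample ranges of both genes came close to each other. The log2 changes were 2.91 ± 0.14 for Ildr1 and -0.90 ± 0.11 for Lsr (SE, 3 samples in each group, limma adjusted p = 8.72e-07 and 0.000104). Marveld2 itself, their partner, was not called on the deposited scale.

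Tjp1, whose product ZO-1 binds claudin tails and actin, fell to 31.3, 23.3 and 32.7 FPKM in Foxo1dd, against 58.8, 41.9 and 38.1 FPKM in Foxo1ff (log2 change -0.64 ± 0.19, SE, 3 samples in each group, limma adjusted p = 0.0179). The groups did not overlap. The mean level of Tjp3 was above that of Tjp1 in Foxo1dd (59.0 against 29.1 FPKM) and below it in Foxo1ff (18.7 against 46.2 FPKM). Ybx3, a Y-box protein that binds ZO-1, fell to 73.9 ± 12.3 FPKM in Foxo1dd, against 273 ± 26.2 FPKM in Foxo1ff (SD, n = 3 each, limma adjusted p = 8.12e-06).

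Of 20 tested regulators of junctions, 4 rose and 4 fell, beside 22.2% higher and 34.2% lower of all tested genes. Wnk4, a kinase known to act on claudins and salt transport in the kidney, rose to 24.6 ± 5.60 FPKM in Foxo1dd, against 0.937 ± 0.126 FPKM in Foxo1ff (SD, n = 3 each, limma adjusted p = 9.31e-07). Grhl2, a grainyhead-like factor that activates claudin genes in mouse kidney epithelium, rose to 53.6 ± 3.91 FPKM in Foxo1dd, against 25.3 ± 4.19 FPKM in Foxo1ff, and its relative Grhl1 fell to 2.34 ± 0.0691 FPKM in Foxo1dd, against 9.34 ± 1.57 FPKM in Foxo1ff (SD, n = 3 each, limma adjusted p = 0.000219 and 4.27e-05). Elf3, an epithelial ETS factor, averaged 124 ± 18.5 FPKM in Foxo1dd and 31.9 ± 2.51 FPKM in Foxo1ff (SD, n = 3 each, limma adjusted p = 6.44e-06). Arhgef2, a guanine nucleotide exchange factor held at junctions, rose to 18.1 ± 1.69 FPKM in Foxo1dd, against 10.8 ± 1.82 FPKM in Foxo1ff (SD, n = 3 each, limma adjusted p = 0.00458). Exons on the opposite strand lie over Grhl2 (Gm16136, 47.2 ± 6.04 FPKM in Foxo1dd and 12.2 ± 1.26 FPKM in Foxo1ff, SD, n = 3 each) and Cxadr (Btg3, 3.13 ± 1.37 FPKM in Foxo1dd and 6.33 ± 1.33 FPKM in Foxo1ff, SD, n = 3 each). Without the strand setting, reads of these pairs cannot be told apart. Wnk4, Elf3, Arhgef2, Lsr, Cxadr and Foxo1 also lie opposite annotated exons of genes not analysed here.

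**Figure D5:**
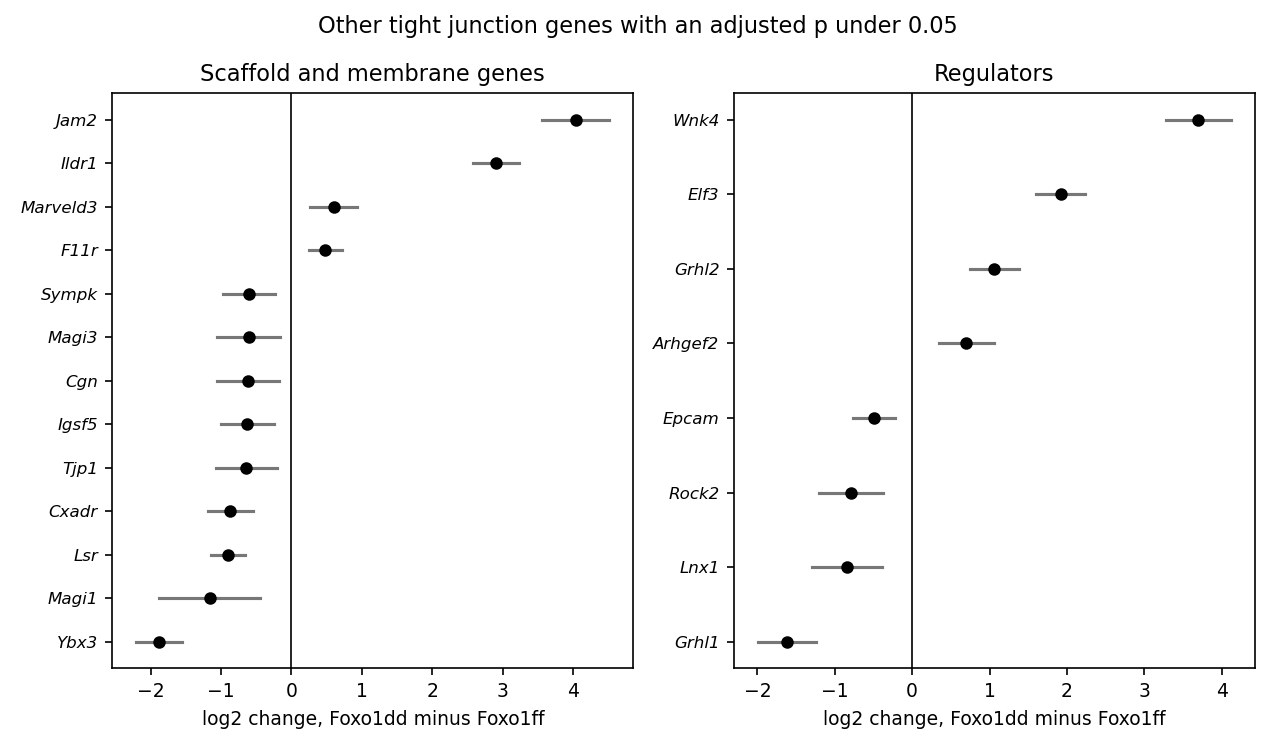
Log2 change of FPKM + 1, Foxo1dd minus Foxo1ff, with 95% intervals from limma, of the 13 scaffold and membrane genes (left) and 8 regulators (right) that passed an adjusted p of 0.05. Jam2 (4.04), Wnk4 (3.70) and Ildr1 (2.91) lie farthest right.

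Likeness of pattern was measured as the root mean square difference between log2 (FPKM + 1) profiles over the 6 samples, each centred on its own mean, against the 48 other genes of the 10 and of the tested list. The nearest gene to Ocln was Igsf5, which encodes JAM4, at 0.07 log2 units. Igsf5 was at 18.3 ± 3.01 FPKM in Foxo1dd and 28.7 ± 4.44 FPKM in Foxo1ff (SD, n = 3 each). Nearest to Cldn23 was Grhl2 (0.10), to Tjp3 Elf3 (0.23), to Cldn3 Arhgef2 (0.20), to Cldn8 Cxadr (0.19), to Cldn10 Cldn1 (0.23) and to Cldn1 Rock2 (0.20). With 2 groups set apart, these distances mostly reflect the size and sign of the group difference.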

How the data were processed

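The authors deposited 1 table of FPKM values for 24964 genes in 6 samples. The submitters' processing notes list DESeq2 1.12.4, edgeR 3.28.0, featureCounts 1.5.0-p1 (Subread), STAR 2.5.2b and the mm10 build without saying what each did. The gene lengths and strand setting behind the values are not stated there. Each gene with a mean of at least 1 FPKM (11427 genes, 13537 left out) entered a limma fit (version 3.58.1, R 4.3.3) on the log2 scale after adding 1 to FPKM, eBayes with a trend, genotype as the only term, and Benjamini-Hochberg adjustment over all tested genes. Fold changes on this scale understate those of low genes, and folds named as such are ratios of mean FPKM. The procedure was tested on simulated data.

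The 10 genes and all lists were chosen with earlier results of these data known. Genes named are the 10, other claudins with a mean of at least 1 FPKM, the 5 listed scaffold or membrane genes and the 5 listed regulators with the smallest p, Tjp1, F11r, Foxo1 and Pgr, the nearest gene to each called one, and markers a result turns on. Cldn5, Cldn16, Cldn17, Ildr2 and genes with exons opposite a named gene are given beyond that rule. The full rule also covers a gene that is not reported here.

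Depth was read from miRNA and snoRNA genes, whose FPKM times RefSeq length stepped in whole reads (88.5% to 100% of low values whole to within 0.05 of a read). The worth of a read was chosen to make that share high, so the share is no separate check of the depth. A read was worth 0.0102 to 0.0136 FPKM per kilobase, least certain in Foxo1dd 2 with 26 genes. Positions come from GENCODE M21, an annotation of the mm10 assembly. Alternatives were other pseudocounts, filters, scalings, variance models, array weights, a replicate block and leaving out each sample.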

Additional observations from a re-analysis of the deposited data

How the results depend on the processing

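Over 159 values of the 10 genes under the alternatives, all planned, 0 changed sign and 18 changed side of the threshold, as given beside the genes. The count of the 10 called higher, 3 on the deposited scale, was 5 under median-of-ratios scaling, quantile normalization and array weights. Of all tested genes 22.2% were higher on the deposited scale, and 27.9%, 28% and 26.8% under those settings, in that order. The count of the 10 ran from 2 to 6 on leaving out 1 sample, the 6 being without Foxo1ff replicate 1, beside 18.5% to 24% of all tested genes. The 2 were without Foxo1ff replicate 2 or 3. The count called lower ran from 3 to 4 over all alternatives, beside 23.2% to 38.7% of all tested genes. With no filter on low values 2 were higher and 3 lower, beside 15.7% and 23.2% of all genes then tested. Of all tested genes 2533 (22.2%) were higher and 3912 (34.2%) lower, and 3184 (27.9%) and 3302 (28.9%) under median-of-ratios scaling. The list of 50 other junction genes gave 8 higher and 13 lower, and 11 and 12 under that scaling. Leaving out 1 sample, the difference in log2 ratio of Cldn7 over Cldn4 (0.09) ran from -0.0514 to 0.164, turning sign without Foxo1ff replicate 1 (-0.0105) and Foxo1dd replicate 1 (-0.0514), and the difference in the Cldn7 share ran from -1.87 to 0.0948 percentage points, turning sign without Foxo1dd replicate 3. The cause was not tested. With the bioreplicate number as a replicate block, 3 of the 10 genes were higher and 4 lower, beside 21.2% and 32.6% of all tested genes. No call among the 10 changed. The labels do not say that the numbers pair animals, so they were not taken to pair the samples. Deviations from the group means correlated with r of 0.123, 0.107 and -0.133 between same-numbered samples. Between samples of different number, r ran from -0.207 to 0.15. The minimum mean of 5 FPKM gave no value for Cldn1. The intervals of Cldn4, Cldn7 and Marveld2 include 0 on the deposited scale, which does not show that their levels were equal.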

Other observations

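The list of other claudins held numbered claudins and also relatives outside the numbered family. It had 31 genes in the table and 7 tested, the numbered claudins Cldn12 and Cldn22 among them. Of the 7, 4 rose, Cldn22 included, and 0 fell, beside 22.2% higher and 34.2% lower of all tested genes. Pmp22, a protein with 4 membrane spans known from myelin and from epithelial junctions, was at 49.6, 50.4 and 85.3 FPKM in Foxo1dd and 0.248, 0.207 and 0.822 FPKM in Foxo1ff. Every Foxo1dd sample was many times above every Foxo1ff sample, a log2 change of 5.44 ± 0.25 (SE, 3 samples in each group, limma adjusted p = 6.12e-07). The epithelial membrane protein genes of the same family differed less. Emp1 was at 12.9, 8.19 and 13.3 FPKM in Foxo1dd and 3.62, 2.83 and 3.32 FPKM in Foxo1ff (log2 change 1.53, limma adjusted p = 0.000207). Emp2 averaged 89.7 ± 13.7 FPKM in Foxo1dd and 56.4 ± 8.17 FPKM in Foxo1ff (SD, n = 3 each, limma adjusted p = 0.00552). Emp3 was at 1.16 and 1.77 FPKM in the same groups and was not called (limma adjusted p = 0.303), and Cldnd1, a claudin domain gene, at 40.6 and 37.5 FPKM (limma adjusted p = 0.562).

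Cldn19, named after its values were seen, lay below the minimum mean of 1 FPKM with 1.24, 1.79 and 0.794 FPKM in Foxo1dd and 0.310, 0.122 and 0.308 FPKM in Foxo1ff. The groups did not overlap, and exons of Gm12927 lie opposite it.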
